A study of Mus musculus with 4 samples.

Results

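Foxp3 regulatory T cells of transplanted mouse hearts were taken as the cell barcodes of the allogeneic grafts that held T cell transcripts together with Foxp3. Members were chosen by their raw counts of unique molecular identifiers (UMIs, counted molecules): at least 2 UMIs of Cd3d, Cd3e and Cd3g together, at least 1 of Foxp3, 0 of Cd8a and Cd8b1, and no more than 2 of the myeloid genes Csf1r, Fcgr1 and Cd68. The rule found 139 members among 19509 kept barcodes of the allografts, with 43 of 4983, 61 of 8215 and 35 of 6311 in allogeneic replicates 1, 2 and 3, and the whole series held 30895 kept barcodes. The samples are hearts collected 5 days after transplantation, with 3 libraries labelled allogeneic (donor and recipient genetically different) and 1 labelled isogeneic (genetically identical). The labels used here name no strain, genotype, age, drug or cell sort for either group. They do not say whether each replicate is an animal of its own, and every p-value here therefore reflects no more than library-to-library spread, which may be technical. Levels of Foxp3, the CD3 genes, Cd4, Cd8a, Cd8b1, Csf1r, Fcgr1 and Cd68 set the classes, are given only as a description and entered no test.

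Regulatory T cells are CD4 T cells that restrain other immune cells, and Foxp3 is the transcription factor that holds their identity. They carry the high-affinity interleukin-2 receptor chain CD25 (Il2ra) and depend on interleukin-2 made by other T cells, while Foxp3 itself represses several cytokine genes. Their known tools include CTLA-4 (Ctla4), which removes costimulatory ligands from antigen-presenting cells, interleukin-10, and the activation of latent transforming growth factor beta by GARP (Lrrc32) and the integrin chain beta 8 (Itgb8). In heart grafts they are known as cells that can delay rejection.

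The classes set beside the members came from the same 3 libraries: CD4 cells without a Foxp3 UMI (at least 1 Cd4 UMI, otherwise gated as the members) and CD8 T cells (at least 1 UMI of Cd8a or Cd8b1, 0 of Cd4 and of Foxp3). They numbered 156, 340 and 95 CD4 cells and 674, 902 and 199 CD8 cells. Depth was lower in the members than in the CD8 cells, with medians of 7749, 5469 and 8071 UMIs per cell in the members, 8736.5, 6883 and 7407 in the CD4 cells and 12044, 8855 and 10915 in the CD8 cells. Counts were summed per class and library, giving 425042, 421336 and 356400 UMIs for the members, and levels below are UMIs per 1000000 UMIs of such a sum (CPM), in the order of replicates 1, 2 and 3. Replicate 3 stood apart: the chi-square per gene between the members' sums was 2.02 for replicates 1 and 2, 4.54 for 1 and 3 and 5.22 for 2 and 3. Of the allogeneic libraries, pairs shared 14 to 19 barcodes, and no barcode was a member in more than 1 library.

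The members carried the other defining genes of the lineage. Il2ra was found in 39 of 43, 44 of 61 and 30 of 35 members, Ctla4 in 41, 56 and 32, and Ikzf2, which encodes the transcription factor Helios, in 41, 54 and 32. Every one of the 139 members had at least 1 UMI of these 3 genes and 98 had all 3. Among the 591 Foxp3-negative CD4 cells, 61 had none of the 3 and 110 had all 3, and how many of those held Foxp3 RNA that was not captured was not tested. A Cd4 UMI was found in 24, 29 and 20 members, so the members without one rest on Foxp3 and the absence of CD8 transcripts for their lineage. Of the members, 55 had 1 Foxp3 UMI, 41 had 2 and 43 had 3 or more, with a highest count of 6.

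Barcodes just inside and just outside the thresholds were few. The 8 members with exactly 2 CD3 UMIs held Ikzf2 in 8 and Il2ra in 5 cells, and the 8 barcodes left out with 1 CD3 UMI held Ikzf2 in 1 and Il2ra in 3. The 9 members with 2 myeloid UMIs held Ikzf2 in all 9, as did the 2 left out with 3. Another 27 T cell barcodes with Foxp3 were left out because they held a CD8 UMI, 13, 12 and 2 by library, with Ikzf2 in 23 of them. Members with 1 Foxp3 UMI had pooled levels of 1292 CPM of Ikzf2 and 397 CPM of Il2ra, beside 1387 and 443 CPM in members with 2 or more.

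Foxp3 UMIs were rare outside T cells. They were found in 0 of 129, 0 of 357 and 0 of 308 endothelial barcodes (median depths 8644, 6225 and 4116.5 UMIs), which allows shares of up to 2.33%, 0.840% and 0.974% at 3 counts. Myeloid barcodes, with medians of 12231, 9663 and 10676 UMIs, held one in 0.197%, 0.182% and 0.133%. T cells without a CD8 UMI held one in 9.47%, 7.47% and 6.92%, at medians of 4590, 4810 and 6548.5 UMIs.

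The members made up a small share of the T cells of each allogeneic library. They were 3.67%, 3.44% and 4.92% of T cells, with Wilson 95% intervals of 2.74% to 4.91%, 2.68% to 4.39% and 3.56% to 6.77%. Replicate 3 stood further apart under other gates on all T cells. Shares were 3.91%, 3.83% and 6.71% with at least 4 CD3 UMIs, and 4.01%, 3.74% and 6.43% without myeloid UMIs. Of 1172, 1775 and 711 T cells, 255, 416 and 376 held no Foxp3, Cd4 or CD8 UMI. Of the CD4-lineage cells, counted as members plus Foxp3-negative CD4 cells, the members were 21.6%, 15.2% and 26.9% (21.2% ± 5.86, SD, n = 3). The comparator needed a Cd4 UMI and the members did not, and with a Cd4 UMI asked of both the members were 24 of 180, 29 of 369 and 20 of 115 such cells, or 13.3%, 7.86% and 17.4%. Their share of all kept barcodes was 0.863%, 0.743% and 0.555%, lowest in replicate 3, the library where their share of T cells was highest. The isograft held no barcode that met the rule, but it held only 90 T cells and 11 Foxp3-negative CD4 cells. Of those T cells, 77 held no Foxp3, Cd4 or CD8 UMI. A count of 0 allows up to 3.33% of its T cells at 3 counts. The upper Wilson 95% limit is 4.09%, above the allograft shares of 3.67% and 3.44%. Of its 11 CD4-lineage cells, 3 counts allow up to 27.3%, above every allograft share. An exact two-sided permutation test of 3 libraries against 1 cannot go below p = 0.25, the value found for each denominator. Intervals and limits here cover counting error only.

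**Figure D1:**
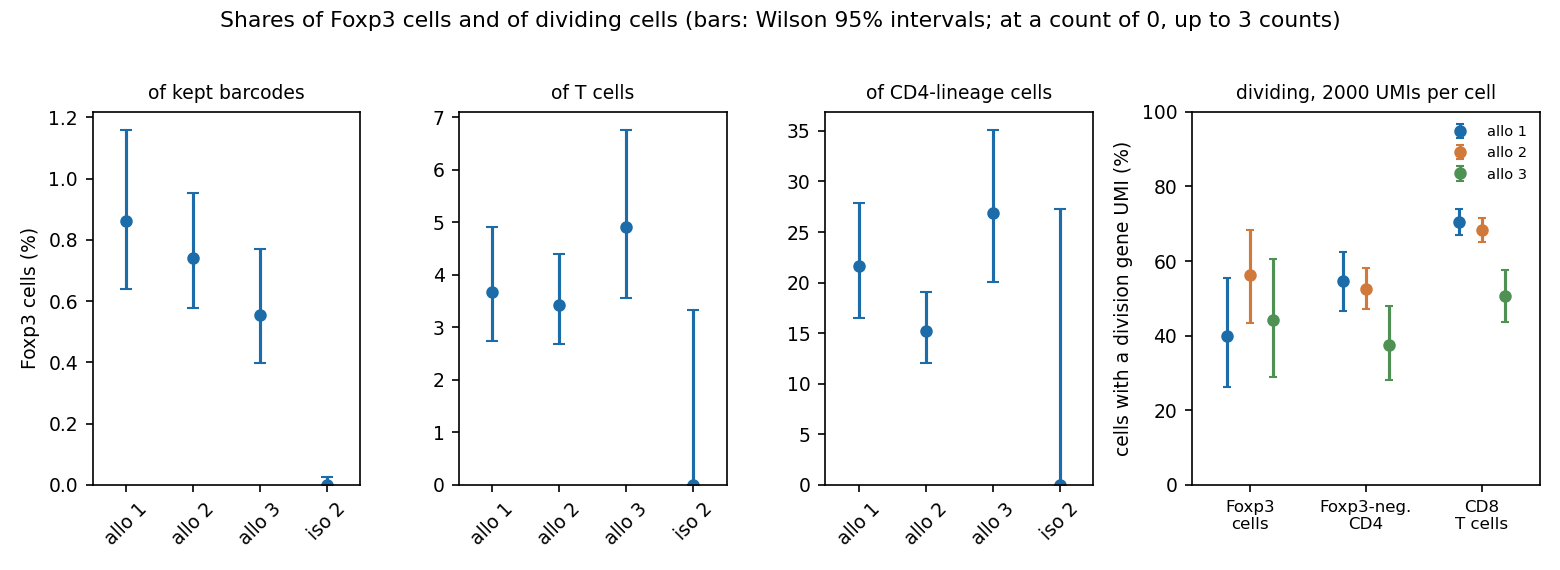
The first 3 panels plot the percentage of Foxp3 cells among kept barcodes, T cells and CD4-lineage cells in each library, with Wilson 95% intervals in the allografts and, for the count of 0 in the isograft, the range up to 3 counts. The last plots the percentage of cells with a division gene UMI after thinning to 2000 UMIs per cell. Shares of T cells lie between 3.44% and 4.92% in the allografts. The isograft, with 0 members of 90 T cells, allows up to 3.33% at 3 counts and 4.09% by the Wilson limit, which is not drawn.

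Against the Foxp3-negative CD4 cells, the members had higher levels of the regulatory program and lower levels of helper cytokines. Of 10800 genes tested, 271 passed an adjusted p of 0.05 (edgeR quasi-likelihood test, 9 class sums, library as a term), 2.51% of those tested, 148 of them higher (1.37%) and 123 lower (1.14%) in the members. The count depended on the libraries: leaving out replicate 1 gave 29, leaving out replicate 2 gave 37, leaving out replicate 3 gave 533, and a fit with no term for the library gave 11. Of the 271 genes, 269 kept their direction without replicate 1, 269 without replicate 2 and 260 without replicate 3. The 12 genes with the largest change toward the members, at 50 CPM or more and higher in 3 of 3 libraries, were Itgb8, Lrrc32, Rln3, Ikzf2, Nrn1, Ankrd55, Cep85l, Ccr2, Swap70, Sgip1, Il2ra and Klhl2. The 12 with the largest change away from them were Il13, Tnfsf8, Igfbp4, Lgals7, Klrd1, Gldc, Tcf7, Dcn, Mgp, Ifng, Il21 and Nrgn.

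Transcripts of other cell types moved with the classes in some libraries. Fibroblast markers (Col1a1, Col1a2, Col3a1, Dcn and Pdgfra) summed to 23.5, 21.4 and 306 CPM in the members, 21.4, 106 and 4390 CPM in the Foxp3-negative CD4 cells and 122, 245 and 5943 CPM in the CD8 cells, with none of the 5 at 0. Of the 5, 3 passed the test as lower in the members than in the CD4 cells, and Col1a1 and Col1a2 were lower in only 2 of 3 libraries; none of the 3 passed without replicate 3 and Dcn alone did by DESeq2. Macrophage markers summed to 1148, 845 and 143 CPM in the members and 880, 788 and 876 CPM in the CD4 cells, and neutrophil markers to 599.9, 679 and 50.5 against 37.4, 102 and 606 CPM. B cell markers summed to 148, 453 and 98.2 against 74.7, 69.99 and 145 CPM, with Ms4a1 at 0 in the members, and endothelial markers to 195, 510.3 and 86.98 against 164, 403 and 235 CPM. Ighm, the IgM heavy chain gene of B cells, was higher in the members than in the CD4 cells, at 106, 114 and 44.9 against 29.7, 31.4 and 23.5 CPM (log2 change 1.65, SE 0.22, adjusted p = 0.00294), and than in the CD8 cells, at 40.7, 46 and 18.2 CPM (log2 change 1.29, adjusted p = 0.00179). Its call against the CD4 cells was lost without replicate 1, without replicate 2, with no library term and with cells thinned to 2000 UMIs (adjusted p = 0.45 in the last). The part of these transcripts in the results was not tested.

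Of the gene lists, chosen with earlier results of these data known, that of regulatory T cell identity held the most differences. Of 20 genes on the identity list, all tested, 14 were higher in the members and none was lower, with a median log2 change of 1.32 beside -0.03 over all genes tested. The 6 that did not pass were Nrp1, Penk, Ecm1, Plagl1, Frmd4b and Il2rb. Without replicate 1 the threshold was passed by 3 of the 14 (Il2ra, Swap70 and Tnfrsf9), without replicate 2 by these and Tnfrsf4, and with no library term by Il2ra, Swap70 and Tnfrsf9. All 14 kept their direction in those fits, and all 14 passed without replicate 3. The lists share genes, so the list counts below are not independent. Of these 14, Il2ra and Socs2 also stand on the interleukin-2 list and Tnfrsf4, Tnfrsf9 and Tnfrsf18 on the costimulatory list. Ctla4 stands on the inhibitory list too, Lrrc32 on the suppressor list and Itgae on the integrin list.

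Il2ra (ENSMUSG00000026770, chr2:11642807-11693193, plus strand), the CD25 chain, stood at 473, 304 and 522 CPM in the members and 97.9, 61 and 109 CPM in the Foxp3-negative CD4 cells (log2 change 2.25, SE 0.14, adjusted p = 4.53e-05). Each library of the members lay above every library of the comparator. Ikzf2 (ENSMUSG00000025997, chr1:69531214-69687245, minus strand) stood at 1475, 1481 and 1066 against 253, 211 and 102 CPM (log2 change 2.94, SE 0.38, adjusted p = 0.00231), again with no overlap. Replicate 3 was the lowest library for Ikzf2 in both classes. The Helios gene overlaps Gm29114 on the opposite strand, and Gm29112 and Gm28112 on its own strand. No source used here states whether the counting used strand, and any part of Gm29114 reads in the Ikzf2 level was not tested. Strand would not separate Ikzf2 from Gm29112 or Gm28112. Il2ra overlaps Gm37881 and Ctla4 overlaps Rpl18-ps1, each on the same strand. Ctla4 (ENSMUSG00000026011, chr1:60887000-60915832, plus strand) stood at 1412, 1438 and 948 against 713, 748 and 352 CPM (log2 change 1.10, SE 0.24, adjusted p = 0.0403), and the groups did not overlap. Its call was lost when members also had to hold a Cd4 UMI (adjusted p = 0.0684).

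In shares of cells, Il2ra separated the classes more than Ctla4 did by value. After thinning each cell to 2000 UMIs, which left out 8 of the 139 members, Il2ra was found in 60.0%, 36.8% and 61.8% of members and 7.89%, 8.98% and 12.5% of Foxp3-negative CD4 cells. Before thinning the shares were 90.7%, 72.1% and 85.7% against 33.3%, 26.8% and 30.5%. Thinned shares for Ctla4 were 85.0%, 77.2% and 82.4% against 63.8%, 65.6% and 36.4%, and unthinned shares 95.3%, 91.8% and 91.4% against 92.9%, 88.2% and 63.2%. Before thinning, a Ctla4 UMI was found in most CD4 cells of either kind in every library. After thinning this did not hold for the Foxp3-negative CD4 cells of replicate 3, at 36.4%.

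Other identity genes followed at lower levels. Ikzf4, which encodes Eos, a partner of Foxp3, stood at 49.4, 47.5 and 36.5 against 12.5, 3.79 and 11.2 CPM (log2 change 2.42, SE 0.42, adjusted p = 0.0113), and lost its call when members also needed a Cd4 UMI (adjusted p = 0.0513). Swap70, which encodes a signalling adaptor of the actin skeleton, stood at 84.7, 94.9 and 112 against 16, 16.6 and 23.5 CPM (log2 change 2.39, SE 0.23, adjusted p = 0.000496). Both had every member library above every comparator library. Izumo1r, the folate receptor 4 gene and a known surface marker of these cells, stood at 426, 472 and 283 against 183, 226 and 88.9 CPM (log2 change 1.26, SE 0.16, adjusted p = 0.00214). Capg, an actin-capping protein gene, differed less, with 659, 736 and 639.7 against 378, 370.3 and 309.8 CPM (log2 change 0.91, SE 0.11, adjusted p = 0.00183), also without overlap. Gpr83, an orphan receptor gene long used as a marker, was scarce, at 9.41, 23.7 and 19.6 against 1.78, 2.07 and 1.02 CPM on 21 and 10 UMIs (log2 change 3.29, SE 0.68, adjusted p = 0.0425), and lost its call under 5 other selections of cells, as when members needed 2 Foxp3 UMIs (adjusted p = 0.111). Nrp1, which marks thymus-derived cells, did not pass, at 7.06, 35.6 and 36.5 against 26.1, 26.5 and 24.5 CPM (adjusted p = 0.994), and replicate 1 of the members was its lowest value.

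**Figure D2:**
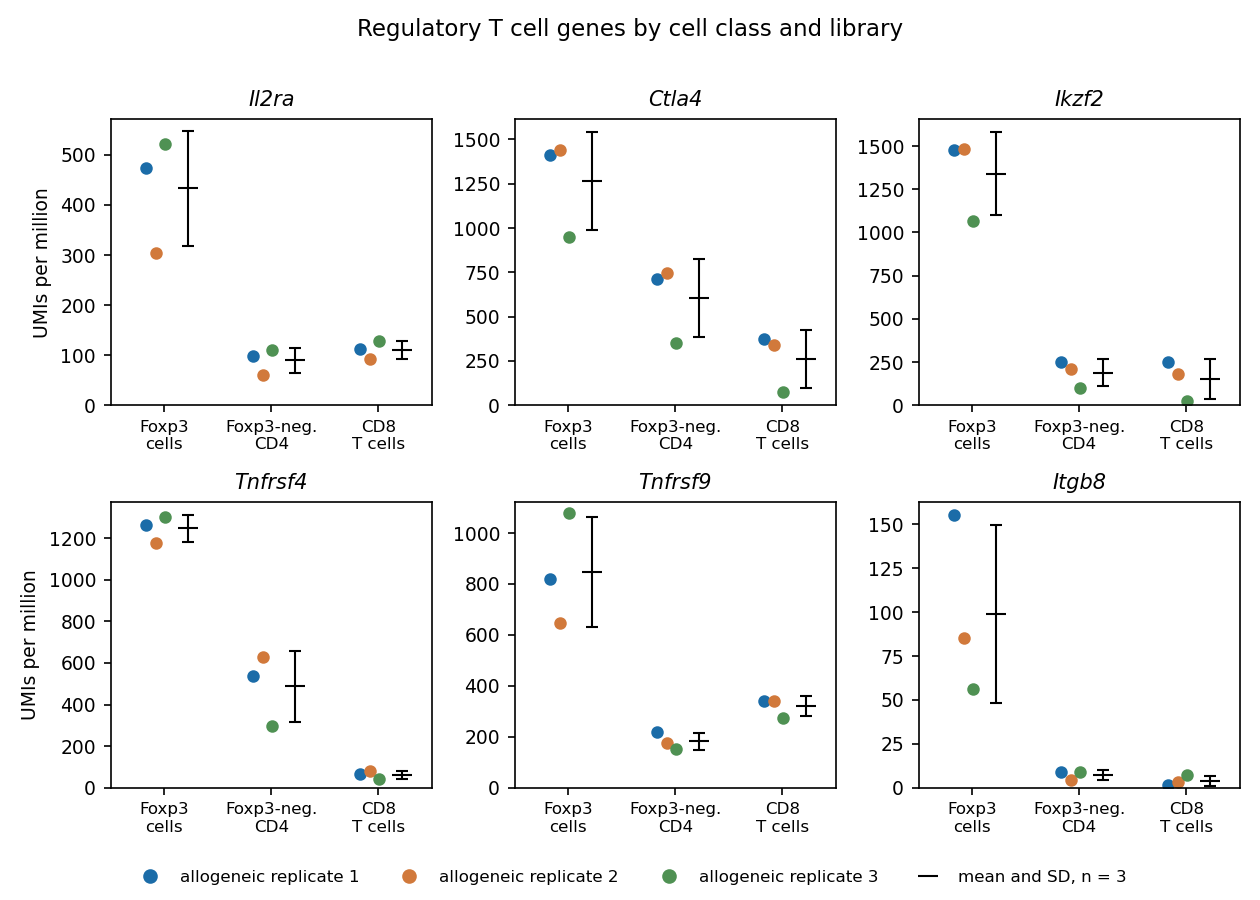
Levels in CPM of 6 genes in the 3 cell classes, each point 1 allogeneic library, with the mean and SD (n = 3) beside it. For all 6 genes the 3 libraries of Foxp3 cells lie above all libraries of the other classes, as for Itgb8, at 56.1 to 155 against 4.14 to 9.20 in the Foxp3-negative CD4 cells.

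Of the interleukin-2 pathway, only the receptor's alpha chain and 2 response genes passed the threshold. These 3 of 14 tested genes were higher and none was lower, with a list median of 0.11. Il2rb, the beta chain, was higher in each library, at 306, 301 and 224 against 259.8, 245 and 103 CPM, but did not pass (adjusted p = 0.229). Il2rg, the common gamma chain, stood at 118, 178 and 112 against 162, 155 and 107 CPM (adjusted p = 0.889). Both genes had overlapping groups. Socs2, a feedback inhibitor induced by STAT5, stood at 106, 123 and 152 against 30.8, 39 and 81.8 CPM (log2 change 1.38, SE 0.25, adjusted p = 0.0132). Pim1, a survival kinase gene, stood at 1009, 1013 and 1035 against 469, 522 and 654 CPM (log2 change 0.88, SE 0.12, adjusted p = 0.00326) and lost its call when members needed a Cd4 UMI (adjusted p = 0.0552). Without replicate 1, without replicate 2 and with no library term, Il2ra alone of the 3 passed. The cytokine itself was nearly absent: Il2 had 1 UMI in the members and 11 in the Foxp3-negative CD4 cells, too few to be tested.

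Promoters are shown for Foxp3, which set the class, for Swap70, higher in the members, and for Ifng, lower in them, as examples that hold the letters of factors known to act in T cells. The sequences run from 250 bases before to 50 after an annotated start, in RefSeq's GRCm38.p6 build, read 5′ to 3′ along the gene. Capitals mark TTCNNNGAA, the letters bound by STAT factors, in Foxp3 and Ifng, and TGTTTAC, forkhead letters, in Swap70, both searched on both strands. No window printed here holds both. Foxp3 has another annotated start, whose window (chrX:7579426-7579725, plus strand) holds neither set of letters and is not printed.
Foxp3 (chrX:7580233-7580532, plus strand): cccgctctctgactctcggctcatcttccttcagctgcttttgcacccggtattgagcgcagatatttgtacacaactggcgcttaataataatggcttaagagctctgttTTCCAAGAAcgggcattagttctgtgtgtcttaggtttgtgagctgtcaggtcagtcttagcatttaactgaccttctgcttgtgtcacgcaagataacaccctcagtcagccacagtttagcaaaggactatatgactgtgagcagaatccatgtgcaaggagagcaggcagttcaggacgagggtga
Swap70 (chr7:110221453-110221752, plus strand): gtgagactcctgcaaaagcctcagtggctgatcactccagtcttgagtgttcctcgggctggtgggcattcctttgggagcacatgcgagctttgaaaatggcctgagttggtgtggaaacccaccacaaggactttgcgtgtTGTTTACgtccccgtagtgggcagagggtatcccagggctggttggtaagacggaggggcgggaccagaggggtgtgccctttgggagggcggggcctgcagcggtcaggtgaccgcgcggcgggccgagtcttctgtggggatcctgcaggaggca
Ifng (chr10:118440796-118441095, plus strand): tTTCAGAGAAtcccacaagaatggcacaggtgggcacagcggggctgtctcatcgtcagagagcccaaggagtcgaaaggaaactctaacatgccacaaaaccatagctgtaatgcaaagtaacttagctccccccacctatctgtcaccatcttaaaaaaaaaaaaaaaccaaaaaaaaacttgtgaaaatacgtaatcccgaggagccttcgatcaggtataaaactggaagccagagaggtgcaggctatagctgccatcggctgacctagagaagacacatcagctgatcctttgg
Of the 148 genes higher in the members, 111 had a promoter in the table, and 16 (14.4%) held the STAT letters and 4 (3.60%) the forkhead letters. Among the 123 lower genes, 87 had one, with 8 (9.20%) and 3 (3.45%). The shares over all tested genes were 8.23% and 3.02%, and over all 32851 promoters of this length 8.30% and 3.65%. These are matches of letters in a window, and no binding was measured in these libraries.

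Members held more transcripts of several costimulatory receptors of the tumour necrosis factor receptor family. Of 12 costimulatory genes tested, 6 were higher and none was lower (median 0.86). Tnfrsf9, which encodes 4-1BB, stood at 821, 648 and 1077 CPM in the members and 218, 175 and 152 CPM in the Foxp3-negative CD4 cells (log2 change 2.18, SE 0.18, adjusted p = 0.000214). Tnfrsf4, which encodes OX40, stood at 1266, 1175 and 1302 against 539.7, 628 and 299 CPM (log2 change 1.39, SE 0.19, adjusted p = 0.00322), and Tnfrsf18, which encodes GITR, at 638, 629 and 847 against 292, 359 and 326 CPM (log2 change 1.08, SE 0.20, adjusted p = 0.0143). None of these 3 overlapped between the classes, a description of genes that had already passed the test. Tnfrsf1b, the second tumour necrosis factor receptor, was higher within each library, at 365, 259 and 118 against 184, 147 and 50.1 CPM (log2 change 0.95, SE 0.14, adjusted p = 0.00458), although replicate 3 of the members lay below replicates 1 and 2 of the comparator. Cd2 and Tnfrsf8 also passed, with changes of 0.77 and 2.47, the latter lost with thinning (adjusted p = 0.166), with a Cd4 UMI needed (0.104), with no myeloid UMI (0.0645) and with only the 2 classes fitted (0.0813). Icos, at 885, 914 and 671 against 698, 665 and 307 CPM, Cd27 and Cd28 did not (adjusted p 0.194, 0.17 and 0.17). Without replicate 1 Tnfrsf9 alone of the 6 passed, and without replicate 2 Tnfrsf9 and Tnfrsf4.

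Inhibitory receptors did not move as a group: of 12 tested, 2 were higher, 1 was lower and 9 did not pass (median -0.58). Tigit, which competes for a costimulatory ligand, was higher in each library, at 151, 173 and 47.7 against 71.8, 77.2 and 23.5 CPM (log2 change 1.08, SE 0.16, adjusted p = 0.00405). Pdcd1, which encodes PD-1, was lower in each library, at 120.0, 126 and 30.9 against 400.3, 426 and 74.6 CPM (log2 change -1.71, SE 0.15, adjusted p = 0.000289). Both genes were lowest in replicate 3 in both classes, so the groups overlapped when libraries were not matched. Lag3, at 228, 185 and 19.6 against 248, 196 and 57.3 CPM, and Havcr2, the TIM-3 gene, at 49.4, 11.9 and 22.4 against 86, 84.8 and 17.4 CPM, did not pass (adjusted p 0.753 and 0.253). Pdcd1 passed without replicate 1 and without replicate 2, and Tigit and Ctla4 passed in neither.

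Among suppressor mediators, the 2 genes that free transforming growth factor beta were higher and the rest were not distinguished. Itgb8 (ENSMUSG00000025321, chr12:119158022-119238802, minus strand) stood at 155, 85.4 and 56.1 CPM in the members, 122 UMIs in all, and 8.9, 4.14 and 9.2 CPM in the Foxp3-negative CD4 cells (log2 change 3.83, SE 0.54, adjusted p = 0.00366). Its share of cells after thinning was 30%, 17.5% and 14.7% in members against 1.97%, 0.929% and 1.14%, and 51.2%, 36.1% and 28.6% against 5.77%, 2.65% and 4.21% before. Lrrc32 (ENSMUSG00000090958, chr7:98489283-98502181, plus strand), which encodes GARP, stood at 108, 99.7 and 42.1 against 8.3, 5.17 and 8.18 CPM (log2 change 3.58, SE 0.62, adjusted p = 0.0115). In both genes replicate 1 of the members was highest, replicate 3 lowest, and no library of the comparator reached them.

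The other 9 tested mediators did not pass (list median 0.28). Il10, the interleukin-10 gene, stood at 134, 83.1 and 58.9 CPM in the members and 125, 134 and 75.7 CPM in the Foxp3-negative CD4 cells (adjusted p = 0.794), with the members the lower in 2 of 3 libraries. Tgfb1, the cytokine gene itself, stood at 191, 123 and 219 against 154, 153 and 117 CPM, and Entpd1, which encodes the ectonucleotidase CD39, at 169, 157 and 39.3 against 134, 126 and 30.7 CPM, with overlapping groups. Areg, a tissue repair factor, was uneven, at 127, 14.2 and 112 against 8.9, 11.4 and 24.5 CPM, high in replicates 1 and 3 of the members only (adjusted p = 0.322). The interleukin-35 genes Ebi3 and Il12a had 4 and 0 UMIs in the members and were not tested. Neither Itgb8 nor Lrrc32 passed without replicate 1, without replicate 2 or with no library term, and both kept their direction.

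Integrins differed in both directions: of 12 adhesion genes tested, 4 were higher and 2 were lower (median 0.08). Itgae, the CD103 chain that binds E-cadherin, stood at 37.6, 71.2 and 19.6 against 2.97, 3.79 and 6.13 CPM (log2 change 3.43, SE 0.52, adjusted p = 0.005), on 53 and 22 UMIs, and its partner Itgb7 at 224, 247 and 157 against 89, 123 and 99.2 CPM (log2 change 0.98, SE 0.21, adjusted p = 0.0367). Itgb7 lost its call when members needed a Cd4 UMI (adjusted p = 0.0844). Itgav, whose product pairs with that of Itgb8, stood at 562, 527 and 323 against 361, 285 and 131 CPM (log2 change 0.89, SE 0.14, adjusted p = 0.00525) and was higher in each library. Itgb1, the beta 1 chain of matrix-binding integrins, was lower, at 148, 173 and 101 against 499.98, 572 and 312 CPM (log2 change -1.74, SE 0.13, adjusted p = 0.000118), and the groups did not overlap. Itgal, the alpha chain of LFA-1, was lower as well, at 75.3, 54.6 and 53.3 against 162, 130.3 and 90.0 CPM (log2 change -1.09, SE 0.17, adjusted p = 0.00739). Without replicate 1 and without replicate 2, Itgb1 alone of the 6 passed.

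Several regulators of effector regulatory T cells were higher. Of 18 tested genes on the effector and tissue list, 6 were higher, 1 was lower and 11 did not pass (median 0.79). Ikzf3, which encodes Aiolos, was higher in each library, at 616, 562 and 236 against 247, 220.0 and 95.1 CPM (log2 change 1.3, SE 0.13, adjusted p = 0.000638). Prdm1, which encodes Blimp-1, stood at 132, 114 and 101 against 36.2, 56.5 and 44 CPM (log2 change 1.31, SE 0.22, adjusted p = 0.00986), and Rora, a nuclear receptor gene of tissue lymphocytes, at 214, 214 and 281 against 107, 98.6 and 189 CPM (log2 change 0.86, SE 0.15, adjusted p = 0.012), both without overlap. Prdm1 lost its call with cells thinned to 2000 UMIs (adjusted p = 0.366). Klrg1, a receptor of highly differentiated cells, was scarce, at 65.9, 23.7 and 8.42 against 0, 0.345 and 3.07 CPM on 41 and 4 UMIs (log2 change 5.22, SE 0.90, adjusted p = 0.0114), in 17 of 139 members and 4 of 591 comparators. Maf and Nfil3 also passed, with changes of 0.81 and 1.11, and Maf lost its call with doublet scores removed (adjusted p = 0.0599) and with no myeloid UMI (0.0771). Bhlhe40, a factor of cytokine-producing helper cells, was lower, at 80.0, 128 and 194 against 463, 374 and 273 CPM (log2 change -1.48, SE 0.30, adjusted p = 0.0291). Batf, Gata3 and Ccr8 did not pass (adjusted p 0.56, 0.0827 and 0.152), with Ccr8 at 51.8, 30.9 and 42.1 against 27.9, 19.7 and 9.2 CPM. None of the 7 passed without replicate 1 and Ikzf3 alone passed without replicate 2.

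Of 12 tested genes of central and naive T cells, 1 was lower (list median -0.03). Tcf7, which encodes TCF-1, a factor of memory and follicular helper cells, was lower, at 9.41, 2.37 and 8.42 against 97.9, 76.9 and 136 CPM (log2 change -3.94, SE 0.43, adjusted p = 0.000984). The members held 8 Tcf7 UMIs and the comparator 521, with no overlap between libraries, and Tcf7 passed without replicate 1, without replicate 2 and with no library term. Ccr7, at 77.6, 78.3 and 92.6 against 49.8, 63.8 and 37.8 CPM, and Il7r, at 226, 551 and 84.2 against 77.7, 131 and 141 CPM, did not pass (adjusted p 0.321 and 0.215).

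Helper cytokines formed the clearest group of lower genes. Of 18 on the list, 11 were tested, 5 were lower and none was higher. The median log2 change was -3.33, or -2.73 with the 2 genes at 0 UMIs in the members (Il13 and Il4) set to the bound that 3 counts over the group allow. Il13, a type 2 cytokine gene, had 0 UMIs in the members and 386 in the Foxp3-negative CD4 cells, 18.4, 19 and 307 CPM by library, so it was at least 27.8-fold lower (edgeR adjusted p = 0.000496). That bound rests on replicate 3, and without that library it was at least 5.29-fold, on 86 comparator UMIs. Tnfsf8, which encodes CD30 ligand, had 1 UMI in the members and 359 in the comparator, at 0, 0 and 2.81 against 55.8, 53.4 and 112 CPM, a pooled ratio of 0.0129 with a counting interval of 0.000325 to 0.0723 (adjusted p = 0.000118). In both genes every comparator library lay above every member library.

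Ifng (ENSMUSG00000055170, chr10:118441046-118445892, plus strand), the interferon gamma gene, stood at 21.2, 35.6 and 236 CPM in the members and 595, 319 and 2062 CPM in the Foxp3-negative CD4 cells (log2 change -3.81, SE 0.40, adjusted p = 0.000706). Replicate 3 was highest in every class, and the members of replicate 3 stayed below all comparator libraries. The Ifng gene overlaps Gm49751 on the same strand. Il21, a helper cytokine for B cells, stood at 14.1, 4.75 and 0 against 103, 46.2 and 49.1 CPM (log2 change -3.33, SE 0.61, adjusted p = 0.0157), and Cd40lg, the ligand by which helper cells license dendritic and B cells, at 9.41, 9.49 and 28.1 against 57.5, 54.5 and 95.1 CPM (log2 change -2.27, SE 0.38, adjusted p = 0.00922). With cells thinned to 2000 UMIs both lost their calls (adjusted p 0.075 for Il21 and 0.145 for Cd40lg), as did Il21 with no myeloid UMI (0.0725). Il4 had 0 UMIs in the members and 92 in the comparator, at least 6.63-fold lower or 2.14-fold without replicate 1, yet did not pass (adjusted p = 0.186), and Tnf stood at 40.0, 23.7 and 87 against 51, 38.3 and 183 CPM (adjusted p = 0.0795). Ifng, Il13 and Tnfsf8 passed without replicate 1 and without replicate 2, while Il21 and Cd40lg did not, and none of the 5 passed with no library term. Each of the 5 passed without replicate 3.

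**Figure D3:**
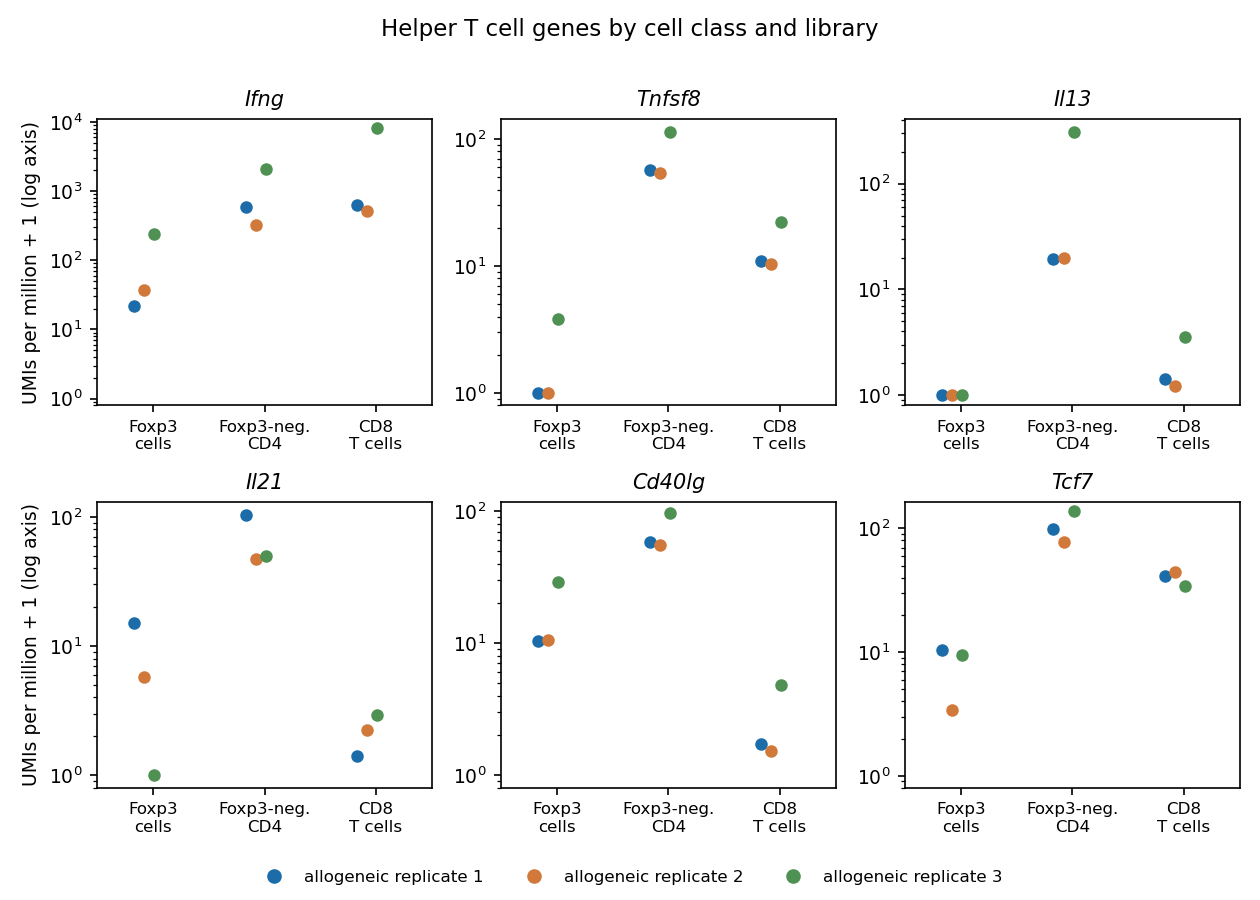
Levels in CPM plus 1, on a log axis, of 6 helper T cell genes in the 3 cell classes, each point 1 allogeneic library; a value of 1 means 0 UMIs. In all 6 genes the Foxp3 cells lie below the Foxp3-negative CD4 cells, and Ifng is highest in replicate 3 in each class, at 236 CPM in the Foxp3 cells and 2062 CPM in the CD4 cells.

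Genes of type 1 helper cells were lower in part. Of 13 tested, 5 were lower (Ifng, Il18rap, Il12rb2, Cxcr6 and Stat4) and none was higher (median -0.56). Stat4, the signalling factor below the interleukin-12 receptor, stood at 72.9, 123 and 87 against 315, 259.6 and 167 CPM (log2 change -1.41, SE 0.25, adjusted p = 0.014), and Il12rb2, a chain of that receptor, at 40.0, 14.2 and 14 against 91.9, 115 and 44 CPM (log2 change -1.90, SE 0.30, adjusted p = 0.00707). Il18rap, part of the interleukin-18 receptor, stood at 11.8, 16.6 and 8.42 against 59.9, 70.7 and 49.1 CPM (log2 change -2.31, SE 0.31, adjusted p = 0.00298). These 3 genes, picked because they had passed the test, had no overlap between the classes. Tbx21, which encodes T-bet, the factor that directs this program, did not pass, at 75.3, 52.2 and 39.3 against 92.5, 70.0 and 39.9 CPM (adjusted p = 0.582), nor did its target Cxcr3, at 139, 75.9 and 42.1 against 73.5, 93.8 and 63.4 CPM (adjusted p = 0.924). Of the 5 lower genes, Ifng alone passed without replicate 1 and without replicate 2.

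Among 12 tested chemokine receptors, 1 was higher and 1 was lower (median 0.11). Ccr2, the receptor for the monocyte attractant CCL2, was higher in each library, at 412, 422 and 73 CPM in the members against 52.8, 81.7 and 24.5 CPM (log2 change 2.41, SE 0.24, adjusted p = 0.000638), though replicate 3 of the members lay below replicate 2 of the comparator. Cxcr6, a receptor of tissue-retained T cells, was lower in each library, at 141, 94.9 and 16.8 against 335, 298 and 73.6 CPM (log2 change -1.51, SE 0.21, adjusted p = 0.00336). Ccr2 passed without replicate 1 and without replicate 2, and Cxcr6 passed in neither. Macrophages also express Ccr2, and their markers, given above, were the highest in the members of replicate 1 and the lowest in those of replicate 3. With barcodes holding any Csf1r, Fcgr1 or Cd68 UMI left out of every class, Ccr2 still passed. Other macrophage transcripts were not filtered, and their part in the Ccr2 level was not tested.

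The cytotoxic list moved in both directions: of 15 tested genes, 1 was higher and 3 were lower (median -1.69). Gzmb, which encodes granzyme B, was higher, at 1946, 1668 and 1787 CPM in the members against 592, 805 and 333 CPM (log2 change 1.66, SE 0.20, adjusted p = 0.00185), with every member library above the comparator. Klrd1, the CD94 chain of natural killer receptors, was lower, at 0, 9.49 and 0 against 77.7, 64.8 and 35.8 CPM (log2 change -4.21, SE 0.52, adjusted p = 0.00214). Ctsw, a protease gene of killer cells, stood at 16.5, 45.1 and 2.81 against 220.0, 194 and 76.7 CPM (log2 change -2.93, SE 0.33, adjusted p = 0.00125), and Fasl, the death ligand gene, at 4.71, 11.9 and 2.81 against 54, 35.9 and 27.6 CPM (log2 change -2.58, SE 0.41, adjusted p = 0.00739). Prf1, the pore-forming partner of granzymes, stood at 44.7, 35.6 and 8.42 against 39.7, 37.6 and 8.18 CPM and did not pass (adjusted p = 1). All 4 changed genes passed without replicate 2 and none without replicate 1, and Fasl lost its call with thinning (adjusted p = 0.121).

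Division, glycolysis, interferon response and the Foxp3 cofactors showed few or no differences past the threshold. For 23 cell cycle genes and 20 partners and regulators of Foxp3, none passed in either direction (medians -0.04 and 0.01). Mki67 stood at 256, 266 and 208 against 345, 308 and 129.8 CPM and Runx1, a cofactor of Foxp3, at 348, 259 and 174 against 312, 243 and 187 CPM. After thinning to 2000 UMIs, cells with a UMI of any of 10 division genes made up 40.0%, 56.1% and 44.1% of members (46.8% ± 8.39, SD, n = 3) and 54.6%, 52.6% and 37.5% of Foxp3-negative CD4 cells (48.2% ± 9.36). Unthinned shares were 66.4% and 66.2% on average. The difference was -1.49 percentage points with an SD of 11.5 (exact sign-flip permutation p = 1, two-sided, where 3 libraries cannot go below 0.25), so a difference of either sign was not detectable with these libraries.

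Of 16 glycolysis genes tested, Slc16a3, a lactate exporter gene, was the 1 that passed, at 113, 112 and 42.1 against 43.3, 30.3 and 17.4 CPM (log2 change 1.52, SE 0.25, adjusted p = 0.00805). Of 23 interferon response genes, Isg20, an RNA exonuclease gene, was the 1 that passed, at 72.9, 131 and 168 against 56.9, 52.8 and 70.5 CPM (log2 change 1.00, SE 0.23, adjusted p = 0.0454). Of 20 antigen receptor and NF-kB response genes, Irf8, a transcription factor gene, was higher and Dusp2, a phosphatase gene that limits kinase signalling, was lower, with changes of 0.88 and -1.16. None of these 4 passed without replicate 1 or without replicate 2, and all 4 did without replicate 3. Slc16a3, Isg20 and Irf8 also lost their calls when members needed a Cd4 UMI (adjusted p 0.0605, 0.117 and 0.557), and Dusp2 with no myeloid UMI (adjusted p = 0.0662) and with thinning (0.0509).

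**Figure D4:**
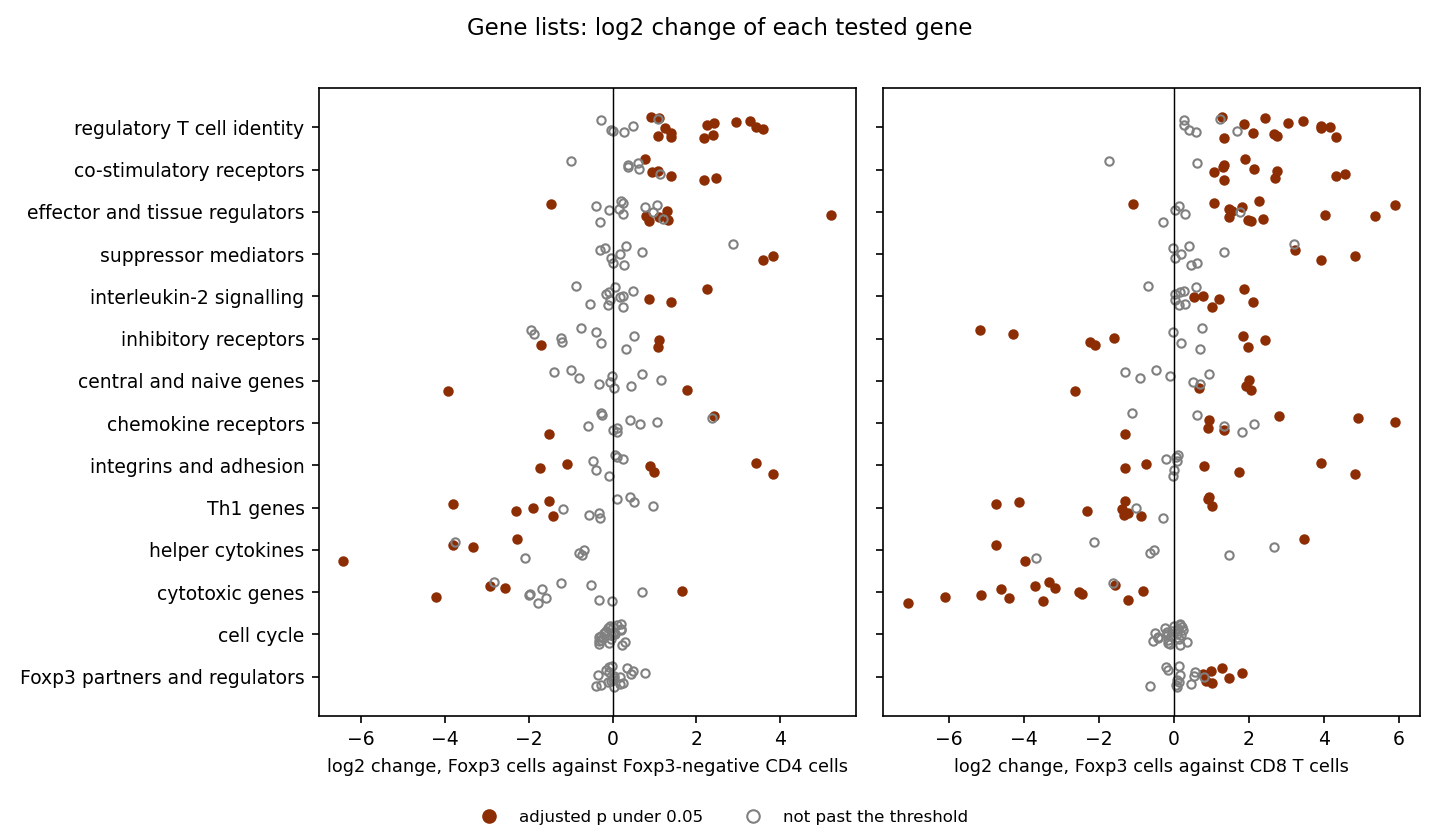
Log2 change of each tested gene of 14 lists, Foxp3 cells against Foxp3-negative CD4 cells (left) and against CD8 T cells (right), filled where the edgeR adjusted p is under 0.05; genes with 0 UMIs in either class are left out. On the left, 14 of 20 identity genes are filled on the right of 0, and no cell cycle gene is filled in either panel.

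Several of the genes with the largest changes lie outside these lists. Rln3, which encodes the peptide relaxin 3, best known from the brain, stood at 127, 94.9 and 75.8 CPM in the members and 2.97, 7.59 and 18.4 CPM in the Foxp3-negative CD4 cells (log2 change 3.5, SE 0.53, adjusted p = 0.00525). Ankrd55, an ankyrin repeat gene, stood at 82.3, 114 and 33.7 against 12.5, 13.4 and 12.3 CPM (log2 change 2.60, SE 0.33, adjusted p = 0.00231), and Klhl2, a ubiquitin ligase adaptor gene, at 155, 164 and 47.7 against 27.9, 30.7 and 17.4 CPM (log2 change 2.24, SE 0.23, adjusted p = 0.000693). Sgip1 and Cep85l changed by 2.31 and 2.5, and Sgip1 lost its call with thinning (adjusted p = 0.121) and with no myeloid UMI (0.0583). Nrn1, the neuritin gene, stood at 75.3, 14.2 and 64.5 against 5.93, 11.7 and 2.04 CPM (log2 change 2.67, SE 0.57, adjusted p = 0.0352), with replicate 2 of the members the lowest of its 3, and lost its call without myeloid UMIs (adjusted p = 0.365). None of these 6 overlapped between the classes, but they were picked for a large change in 1 direction in all 3 libraries. That lack of overlap is therefore a description only. The share of all tested genes without overlap is not given here.

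On the lower side, Lgals7, a galectin gene, stood at 9.41, 2.37 and 2.81 CPM in the members against 133, 59 and 106 CPM (log2 change -4.32, SE 0.44, adjusted p = 0.000694), and passed without replicate 1, without replicate 2 and with no library term. Gldc, which encodes the glycine-cleaving decarboxylase, stood at 4.71, 4.75 and 0 against 99, 65.2 and 10.2 CPM (log2 change -4.15, SE 0.61, adjusted p = 0.00455, or adjusted p = 0.0927 with thinning), and Nrgn, the neurogranin gene, at 2.35, 14.2 and 0 against 79.5, 63.4 and 21.5 CPM (log2 change -3.28, SE 0.51, adjusted p = 0.006). Dcn, Mgp and Igfbp4 are genes of stromal cells, and they were high in replicate 3 of the comparator above all: Mgp stood at 4.71, 4.75 and 81.4 against 9.49, 157 and 891 CPM and Dcn at 2.35, 9.49 and 39.3 against 8.9, 54.8 and 793 CPM. Dcn and Igfbp4 did not pass without replicate 3 (adjusted p 0.0578 and 0.111), Igfbp4 did not with thinning (0.087), and replicate 3 was the library where the fibroblast markers given above were highest. Of the 24 named genes, 11 passed without replicate 1, 14 without replicate 2, 22 without replicate 3 and 4 with no library term, and all 24 kept their direction in these 4 fits.

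Against the CD8 T cells of the same libraries, the members differed in more genes. Of the 10800 tested, 1246 passed (11.5%), 707 of them higher (6.55%) and 539 lower (4.99%) in the members, with 473 left after dropping replicate 1, 384 after dropping replicate 2 and 327 with no library term. This comparison uses the same member sums as the one above, so the 2 are not independent, and the gate on CD8 transcripts separated the classes. The 12 largest changes toward the members, by the same rule, were in Maf, Itgb8, Sgip1, Tnfrsf4, Izumo1r, Asb2, Lrrc32, Rln3, Ikzf2, Ankrd55, Il10 and Neb. The 12 largest away from them were in Xcl1, Klrd1, Crtam, Gm44174, Cd160, Klrc1, Tnfaip6, Klrc2, Ifng, Col1a1, Ccl19 and Gzma. Of these 24, all 24 passed without replicate 1, all 24 without replicate 2 and 23 without replicate 3. Gm44174 (chr6:71353035-71373284, plus strand) lies between the gate genes Cd8b1 (end 71337494) and Cd8a (start 71373427), on their strand. Whether the gate on CD8 transcripts set its level was not tested.

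The identity list gave 14 of 20 higher and none lower than in CD8 cells (median 2.27 beside -0.05 over all genes tested), and the costimulatory list 10 of 12 higher. Maf, a factor that drives interleukin-10, stood at 621, 506 and 525 CPM in the members and 11, 11.4 and 17.6 CPM in CD8 cells (log2 change 5.37, SE 0.22, adjusted p = 4.31e-07). Il10 itself stood at 134, 83.1 and 58.9 against 5.73, 12 and 12.8 CPM (log2 change 3.24, SE 0.40, adjusted p = 0.000446), a gene at which the members and the Foxp3-negative CD4 cells overlapped. Ccr8, a chemokine receptor of tissue regulatory cells, stood at 51.8, 30.9 and 42.1 against 1.15, 0.409 and 0.32 CPM (log2 change 5.90, SE 0.44, adjusted p = 2.02e-05). Tnfrsf9 differed less than Tnfrsf4 here, with changes of 1.33 and 4.33. Of the 20 partners and regulators of Foxp3, 7 were higher, Runx1 among them at 348, 259 and 174 against 108, 98.6 and 61.7 CPM (log2 change 1.47, SE 0.13, adjusted p = 6.64e-05), and none was lower.

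Cytotoxic genes were lower than in CD8 cells: 14 of 15 tested were lower and none was higher (median -3.32), and Ccl4 did not pass. Xcl1, a chemokine for cross-presenting dendritic cells, stood at 4.71, 7.12 and 14 against 332, 441 and 3507 CPM (log2 change -7.10, SE 0.67, adjusted p = 8.4e-05), highest in replicate 3. Klrd1 stood at 0, 9.49 and 0 against 307, 252 and 103 CPM (log2 change -6.10, SE 0.43, adjusted p = 1.35e-05). Its partners Klrc1 and Klrc2 changed by -5.14 and -5.07. They are relatives, and the effect of shared reads on their counts was not tested. Prf1 stood at 44.7, 35.6 and 8.42 against 306, 346 and 284 CPM (log2 change -3.48, SE 0.37, adjusted p = 0.00019). Gzmb differed least, at 1946, 1668 and 1787 against 3019, 3474 and 2807 CPM (log2 change -0.84, SE 0.19, adjusted p = 0.0188), so the members lay between the CD4 and the CD8 cells for it in every library. Of the 14 lower genes, 10 passed without replicate 1, 9 without replicate 2 and 9 with no library term. Dividing cells made up 46.8% of members and 63.2% ± 11 (SD, n = 3) of CD8 cells after thinning, lower in 3 of 3 libraries (exact permutation p = 0.25, the smallest possible). With barcodes holding myeloid UMIs left out, replicate 3 had 46.9% in the members against 46.5% in CD8 cells, and the difference of -13.6 percentage points had an exact permutation p of 0.5.

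The members also varied among the allogeneic libraries. Some genes, picked after their values were seen, differed by value between replicate 3 and the others, and no theme is drawn from them. Nkg7, a granule protein gene, stood at 1063, 807 and 129 CPM, Lag3 at 228, 185 and 19.6 CPM, Ccl4 at 950.5, 519.8 and 75.8 CPM and Entpd1 at 169, 157 and 39.3 CPM by library. Interferon-induced Ifit1 went the other way, at 9.41, 14.2 and 210.4 CPM, and Isg15 at 75.3, 107 and 396 CPM. The Foxp3-negative CD4 cells had the same library highest for Ifit1 (12.5, 10.3 and 377 CPM) and lowest for Lag3 (248, 196 and 57.3 CPM). Myc stood at 21.2, 14.2 and 146 CPM and Cd69, an early activation gene, at 58.8, 54.6 and 238 CPM. With 1 library on each side of such contrasts there is no replicate of replicate 3, and no test was made. Gzmb, also of the cytotoxic list, was level across the members, at 1946, 1668 and 1787 CPM.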

How the data were processed

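Droplet 3' single-cell libraries of transplanted hearts, 3 libraries labelled allogeneic and 1 isogeneic, were read from the gene by barcode matrices. The deposited values are counts of UMIs per gene and barcode. Per the submitters' processing notes they were made with Cell Ranger 3.1.0 on mm10, while the file headers name version 6.1.0. Strand use and the treatment of doublets are not given in the sources used here.

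Barcodes with at least 500 UMIs, 300 genes and at most 20% mitochondrial UMIs were kept; doublets were removed only as an alternative (Scrublet in scanpy 1.11.5). Members, comparators and gene lists were chosen with earlier results of these data known. Counts were summed per class and library and fitted with edgeR 4.0.16 (TMM, filterByExpr, quasi-likelihood F-test, class and library as terms, 4 residual degrees of freedom), with Benjamini-Hochberg adjustment over the 10800 genes tested. The library pairs the sums because the classes come from the same library. The 10 gate genes stayed in the totals and out of the tests. SEs were taken as the log2 change over the square root of F and are approximate.

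Named genes were the 12 with the largest change in each direction past an adjusted p of 0.05, at 50 CPM or more in the higher class and with 1 direction in all 3 libraries, and members of the lists. Positions are from GENCODE M21 (mm10), where 32403 of 34097 gene IDs matched. A planned comparison within the members was not run, as some of its parts held under 20 cells, and a result on the list of central and naive genes is not reported here. The steps were tested on simulated data. Alternatives were DESeq2 1.42.0, no filter, no library term, fewer classes, other gates, thinning, and leaving out each replicate.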

Additional observations from a re-analysis of the deposited data

How the results depend on the processing

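No gene of the text that passed the test changed direction in an alternative that was run. The count of genes called against Foxp3-negative CD4 cells (271) became 679 with no expression filter, 233 higher and 446 lower, 11 with no replicate block, 180 with cells thinned to 2000 UMIs, and 29 to 533 with each replicate left out in turn; it stayed within 1.5 times in the other 8 settings, DESeq2 (326) among them. Against CD8 cells (1246) it became 2030 with no filter, 663 higher and 1367 lower, 327 with no replicate block, 588 with only the 2 classes compared, 677 with thinning, and 384 to 1615 with each replicate left out. Members with at least 2 Foxp3 UMIs were 0.439% of kept barcodes, 2.41% of T cells and 14.1% of CD4-lineage cells; members without myeloid UMIs were 0.555% of kept barcodes, and with 4 CD3 UMIs 4.82% of T cells. In an alternative chosen after seeing the data, members with a Cd4 UMI were 0.384% of kept barcodes, 2.16% of T cells and 12.9% of CD4-lineage cells. The difference in dividing cells lay between -5.55 and 5.06 percentage points with each replicate left out. For 65 genes called against CD4 cells, 703 of 905 values kept their side of the threshold and 202 did not; for 33 against CD8 cells it was 449 of 461. The causes of these changes were not tested. A planned comparison within the members, and so its alternatives, was not run. With 356400 to 425042 UMIs per member sum, 1 UMI is over 2 CPM, which limits genes at a few CPM.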
